A study of Rattus norvegicus with 18 samples.

Results

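The TAM family comprises the receptor tyrosine kinases Tyro3, Axl and Mertk and their ligands Gas6 and protein S, the product of Pros1. Its members were taken as every probe set whose platform annotation gave exactly 1 gene symbol and whose symbol was Tyro3, Axl, Mertk, Gas6 or Pros1, which yielded 5 of 13811 named genes through 8 of 31256 probe sets, 7 on the array type called A here and 1 on the type called B. Expression had been profiled in cells sorted by flow cytometry from the dissociated whole brains of 7-day-old male rats. The O4+ group had 4 biological replicates and the A2B5+ group had 5, each prepared from a litter of 10 pups, so every RNA sample pools animals, and each replicate was measured on both array types (18 arrays). The O4 antibody recognises sulfatide, a lipid of late oligodendrocyte progenitors and oligodendrocytes, and the A2B5 antibody recognises gangliosides of glial progenitors and some neurons. No strain, genotype or treatment was given for any group.

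TAM receptors bind their ligands outside the cell, where they carry immunoglobulin-like and fibronectin domains, and signal through an intracellular tyrosine kinase. Gas6 and protein S carry glutamate residues that are carboxylated in a vitamin K-dependent reaction, through which they attach to phosphatidylserine on the surface of dying cells and shed membrane, so that a receptor can link a phagocyte to its target. Gas6 binds all 3 receptors, whereas protein S acts mainly on Tyro3 and Mertk. In the brain, Mertk and Axl are known for engulfment by microglia, Mertk also for engulfment by astrocytes, and Tyro3 for its expression in neurons and oligodendrocytes, where its loss in the mouse thins myelin.

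The promoters of Tyro3 and Mertk are shown because Tyro3 was the receptor that was higher in O4+ cells and Mertk the receptor with a probe set that was lower, although its other probe set was not called. Both lie on the plus strand of chromosome 3, and each sequence runs 5′ to 3′ from 250 bases before to 50 bases after the annotated gene start (RefSeq, build GRCr8; Tyro3 at chr3:127231653-127231952, Mertk at chr3:136392324-136392623). Capitals mark the GC box, GGGCGG on either strand.
Tyro3: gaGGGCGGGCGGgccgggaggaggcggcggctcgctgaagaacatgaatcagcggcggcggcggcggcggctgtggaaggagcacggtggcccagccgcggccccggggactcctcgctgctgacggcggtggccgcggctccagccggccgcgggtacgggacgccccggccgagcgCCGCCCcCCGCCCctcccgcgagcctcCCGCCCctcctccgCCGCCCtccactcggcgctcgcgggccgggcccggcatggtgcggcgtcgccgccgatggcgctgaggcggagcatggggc
Mertk: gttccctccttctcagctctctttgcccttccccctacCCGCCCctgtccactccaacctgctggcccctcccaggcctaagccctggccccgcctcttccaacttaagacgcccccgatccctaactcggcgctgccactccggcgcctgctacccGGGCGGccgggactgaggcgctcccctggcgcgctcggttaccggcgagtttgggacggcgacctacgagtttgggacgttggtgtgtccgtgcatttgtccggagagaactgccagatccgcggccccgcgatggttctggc
All 5 genes were found in the RefSeq promoter table. The GC box occurred 6 times in the Tyro3 window, with overlapping matches counted separately, 1 time for Axl, 2 times for Mertk and 3 times each for Gas6 and Pros1. It was present in 33.1% of the 33469 annotated windows of the same length. The Tyro3 window held 49 CpG dinucleotides, more than 99.1% of those windows, against 27 for Mertk, 26 for Gas6, 19 for Pros1 and 11 for Axl. The AP-1 letters TGANTCA matched 1 time in the Tyro3 window and in no other member, beside 7.33% of all windows. The Sox core ACAAAG matched 1 time, in the Pros1 window (18.8% of all windows), the E-box CANNTG 1 time, in the Mertk window (72.1%), and TATAAA in none of the 5 (14.2%). Both strands were searched for each motif. A match describes letters in the window and says nothing of binding, and the windows have no counterpart in the array measurements.

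Tyro3 was far higher in O4+ cells, whereas Pros1, 1 of 2 Mertk probe sets and 2 of 3 Gas6 probe sets were lower. Tyro3 stood 11.1-fold higher. Mertk was 3.85-fold lower by 1 probe set, Pros1 2.98-fold lower, and Gas6 2.00-fold and 2.44-fold lower. Axl and the remaining Mertk and Gas6 probe sets did not pass the test. All 8 probe sets passed the filter, a ratio of at least 1 on at least 4 of 9 arrays. Each had a median ratio of exactly 1, with 5 arrays at or above 1, so passing does not show detection. Mertk 1390389_at, Pros1 and Gas6 1369735_at passed through A2B5+ arrays alone. On array A, 1 of 7 was called higher and 3 lower, where 32.5% of 13098 tested probe sets were called higher and 14.7% lower. On array B the single member was called lower, where 9.93% of 11136 tested probe sets were called higher and 13.8% lower. A call is an adjusted p under 0.05 in limma, fitted over all tested probe sets of the array type. Values are the authors' deposited ratios, in which each probe set is scaled to its own reference, so arrays can be compared within a probe set but not probe sets with each other. Differences are O4+ minus A2B5+ in log2 units with the standard error (SE) of the fit. The O4+ arrays of type A had medians 0.17 above those of the A2B5+ arrays. With each array centred on its median, 18.6% were called higher and 17.9% lower there, and the members' calls were the same 1 and 4 in all. In such sorted bulk samples, fewer cells of a type and less RNA per cell cannot be told apart.

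**Figure D1:**
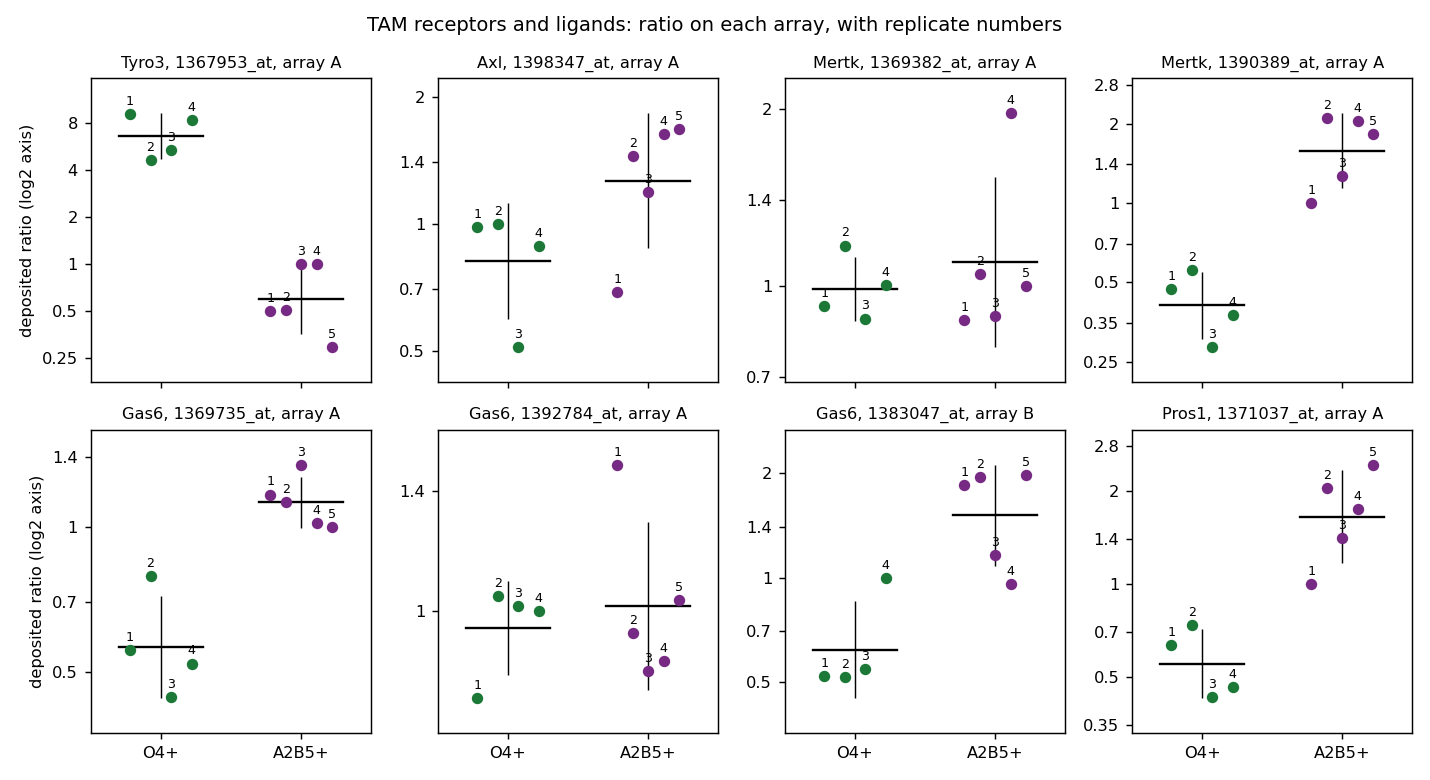
Deposited ratio (log2 axis) of each TAM probe set on every array, O4+ at the left and A2B5+ at the right of each panel. Points carry replicate numbers, horizontal lines are means of the log2 ratios and vertical lines their SD. Tyro3 lies at 4.616 to 9.165 in O4+ and at 0.294 to 1.000 in A2B5+ cells.

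Tyro3, the receptor best known from neurons and oligodendrocytes, was represented by probe set 1367953_at on array A, which was designed on the reference mRNA. Its ratios were 9.165, 4.616, 5.343 and 8.399 in O4+ replicates 1 to 4, against 0.501, 0.509, 0.998, 1.000 and 0.294 in A2B5+ replicates 1 to 5. Every O4+ array lay above every A2B5+ array, a separation in this direction that 33.3% of tested array A probe sets showed. The log2 means were 2.72 ± 0.48 in O4+ cells (SD, n = 4) and -0.75 ± 0.75 in A2B5+ cells (SD, n = 5). The difference was 3.47 ± 0.37 (limma adjusted p = 6.7e-05), which placed Tyro3 at rank 96 of the 13098 tested array A probe sets ordered from the largest rise. In terms of fold, 1 SE to either side of the mean spans 8.56 to 14.4. Leaving out single arrays gave 3.22 to 3.66, with adjusted p between 9.4e-05 and 0.00038.

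The A2B5+ values of Tyro3 spread widely. They formed a pair near 1, a pair near 0.5 and a lowest value of 0.294 in replicate 5. Over the 9 arrays, probe sets of array A with a median ratio below 1 were nearly flat once the pattern they share was removed (median residual SD 0.064). For probe sets with a median of exactly 1, as Tyro3 has, the median residual SD was 0.39. The residual SD of Tyro3 was 1.79 over the 9 arrays, which includes the population difference, and 0.77 among the A2B5+ arrays alone. These values do not show whether Tyro3 was detected in A2B5+ cells. Among the O4+ arrays, replicates 1 and 4 were high and replicates 2 and 3 lower. The mean log2 ratio of 12 myelin and oligodendrocyte genes of array A was also higher in O4+ replicates 1 and 4 (4.43 and 4.39) than in replicates 2 and 3 (3.79 and 3.69). In A2B5+ cells the myelin mean varied little, between -0.86 and -0.66. The mean of 7 oligodendrocyte progenitor genes varied more there, at 0.63, -0.46, 0.24, 0.33 and -1.13 in A2B5+ replicates 1 to 5. It was lowest in replicate 5, as was Tyro3, but highest in replicate 1, where Tyro3 was not. A link between this list and Tyro3 was not tested.

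Mertk, the receptor of engulfing microglia and astrocytes, was measured by 2 probe sets on array A that differed from each other. Probe set 1390389_at, designed on an expressed sequence tag, had ratios of 0.471, 0.559, 0.285 and 0.375 in O4+ replicates 1 to 4, against 1.000, 2.092, 1.260, 2.038 and 1.819 in A2B5+ replicates 1 to 5. No O4+ array reached the lowest A2B5+ array, as for 10.7% of tested array A probe sets. The difference was -1.95 ± 0.27 (limma adjusted p = 0.00031; log2 means -1.29 ± 0.42 in O4+ and 0.66 ± 0.47 in A2B5+ cells, SD, n = 4 and 5), and it ran from -2.11 to -1.77 when single arrays were left out. It ranked 277 among the 13098 tested probe sets ordered from the largest fall.

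Probe set 1369382_at, designed on the reference mRNA of Mertk, had ratios of 0.924, 1.172, 0.880 and 1.005 in O4+ replicates 1 to 4, against 0.876, 1.049, 0.890, 1.968 and 1.000 in A2B5+ replicates 1 to 5. Apart from A2B5+ replicate 4, all arrays of both populations lay together between 0.876 and 1.172. Its difference was -0.15 ± 0.24 (limma adjusted p = 0.61), and 0.06 without A2B5+ replicate 4. The log2 ratio of 1390389_at minus that of 1369382_at, which the scale of an array cannot alter, ranged from -1.63 to -0.97 in O4+ and from 0.05 to 1.00 in A2B5+ cells. That contrast between the probe sets differed between populations by -1.79 (exact permutation test over 126 splits, two-sided, p = 0.0079, the smallest they allow; adjusted p = 0.016 over 2 such tests, both chosen after the values were seen). With both probe sets averaged, Mertk differed by -1.05 ± 0.23 (limma adjusted p = 0.0049), a value that describes neither of them.

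Axl, the receptor with the highest affinity for Gas6, was represented by 1398347_at on array A. Its ratios were 0.984, 1.000, 0.512 and 0.889 in O4+ replicates 1 to 4, against 0.689, 1.446, 1.190, 1.635 and 1.679 in A2B5+ replicates 1 to 5. The populations overlapped through A2B5+ replicate 1 alone, which lay below 3 of 4 O4+ arrays. The difference of -0.63 ± 0.29 was not called (limma adjusted p = 0.096), nor was it after centring (-0.80, adjusted p = 0.053). Without A2B5+ replicate 1 it was -0.85 and was called (adjusted p = 0.020). Without O4+ replicate 3, the lowest array, it was -0.40 (adjusted p = 0.26).

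Within an array, Tyro3 and the other receptors could be set against each other free of array scale. The log2 ratio of Tyro3 minus that of Mertk 1390389_at was 3.05 to 4.49 on O4+ arrays and -2.63 to -0.34 on A2B5+ arrays. Tyro3 minus Axl was 2.21 to 3.38 on O4+ arrays and -2.51 to -0.25 on A2B5+ arrays. These contrasts show unequal change between the receptors and not their relative abundance, since each probe set has its own reference value.

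**Figure D2:**
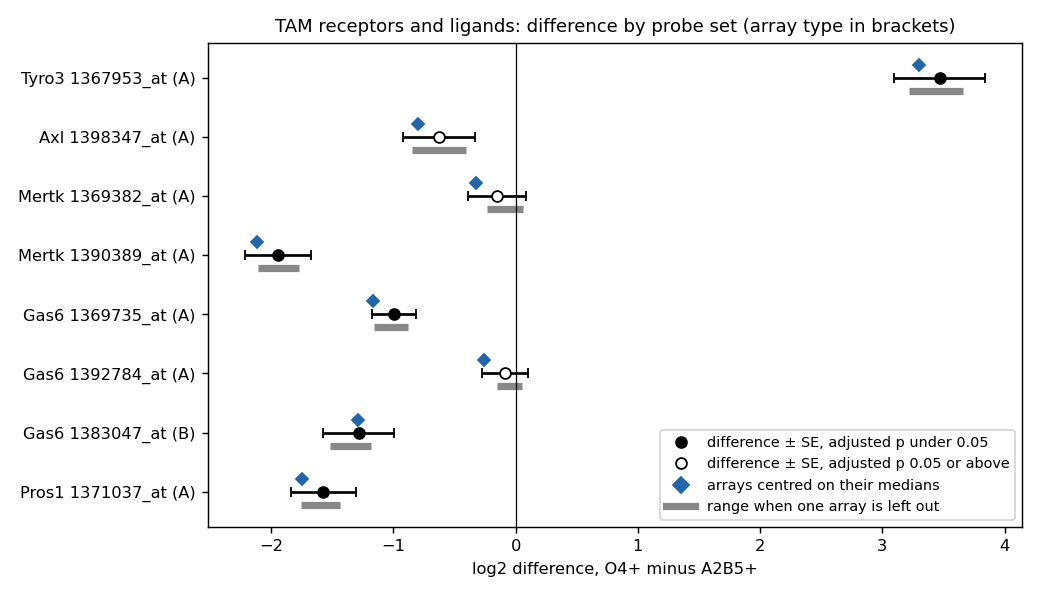
Log2 difference, O4+ minus A2B5+, for each TAM probe set. Circles with bars are the fitted difference ± SE (filled where the adjusted p is under 0.05), diamonds the difference with arrays centred on their medians, and grey bars the range when a single array is left out. Tyro3 alone lies to the right of 0, at 3.47, while the 4 filled circles to the left lie between -1.95 and -0.999.

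The ligand protein S, which also serves as an anticoagulant cofactor in blood, was represented by the Pros1 probe set 1371037_at on array A, designed on an mRNA sequence. Its ratios were 0.635, 0.738, 0.432 and 0.464 in O4+ replicates 1 to 4, against 1.000, 2.046, 1.406, 1.743 and 2.435 in A2B5+ replicates 1 to 5. The populations did not overlap, a separation in this direction that 10.7% of tested array A probe sets showed. The difference was -1.58 ± 0.27 (limma adjusted p = 0.0011; log2 means -0.85 ± 0.37 in O4+ and 0.72 ± 0.50 in A2B5+ cells, SD, n = 4 and 5) and ran from -1.76 to -1.43 when single arrays were left out. Pros1 and Mertk 1390389_at put the O4+ replicates in the same order, but among A2B5+ arrays Pros1 was highest in replicate 5 and Mertk in replicate 2. Neither was among the 3 genes that correlated best with the other. The log2 ratio of Pros1 minus that of Mertk stayed within 0.31 to 0.60 on O4+ arrays and within -0.23 to 0.42 on A2B5+ arrays.

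Gas6, the ligand of all 3 receptors, had 3 probe sets, of which 2 were lower in O4+ cells. Probe set 1369735_at on array A, designed on the reference mRNA, had ratios of 0.555, 0.791, 0.443 and 0.521 in O4+ replicates 1 to 4, against 1.171, 1.128, 1.352, 1.020 and 1.000 in A2B5+ replicates 1 to 5. The populations did not overlap, as for 10.7% of tested array A probe sets in this direction, and the A2B5+ values were close together. The difference was -0.999 ± 0.18 (limma adjusted p = 0.0016; -1.16 to -0.88 with single arrays left out).

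On array B, Gas6 probe set 1383047_at had ratios of 0.522, 0.517, 0.547 and 1.000 in O4+ replicates 1 to 4, against 1.844, 1.943, 1.158, 0.959 and 1.980 in A2B5+ replicates 1 to 5. O4+ replicate 4 stood well above the other O4+ arrays and overlapped the lowest A2B5+ array, replicate 4. This O4+ array had the lowest limma array weight of type B (0.31). Such weights are smaller where an array departs more from the fit over all probe sets. The difference was -1.29 ± 0.29 (limma adjusted p = 0.013), and -1.52 without O4+ replicate 4 (adjusted p = 0.0047). With the replicate number as a block it was -1.19 and was not called (limma adjusted p = 0.088). That fit gives A2B5+ replicate 5, which has no O4+ counterpart, no part in the difference.

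The third Gas6 probe set, 1392784_at on array A, had ratios of 0.784, 1.044, 1.015 and 1.000 in O4+ replicates 1 to 4, against 1.510, 0.940, 0.846, 0.870 and 1.031 in A2B5+ replicates 1 to 5. The populations overlapped, apart from O4+ replicate 1, which lay below every A2B5+ array, and A2B5+ replicate 1, which lay above every O4+ array. The difference was -0.09 ± 0.19 (limma adjusted p = 0.71). The log2 ratio of 1369735_at minus that of 1392784_at was -1.20 to -0.40 in O4+ and -0.37 to 0.68 in A2B5+ cells, a difference of -0.91 (exact permutation test over 126 splits, two-sided, p = 0.016, adjusted p = 0.016 over the same 2 tests). Both tests were chosen after the values were seen, for which the adjustment does not correct. Where on the transcripts the probes of the diverging Mertk and Gas6 probe sets lie was not analysed here.

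Myelin and oligodendrocyte markers were higher in O4+ cells, and most tested markers of microglia, astrocytes and endothelium were lower. Of 17 tested genes of myelin and oligodendrocytes 17 were higher in O4+ cells, with Mbp, a structural myelin protein, at 4.48 ± 0.15 and Mog, of the myelin surface, at 5.59 ± 0.33. The filter can be passed through the arrays of 1 population alone, which favours genes that are high there. With a median ratio of at least 1 required instead, 14 genes of this list were tested and 14 were higher. Of all 11982 genes tested with 1 value per gene, 28.8% were called higher and 17.8% lower, with a median difference of 0.14. Among 23 microglia and macrophage markers, 18 were lower and 0 higher (median -1.37). Csf1r and Cx3cr1, receptors of microglia, fell by 1.36 ± 0.24 and 1.87 ± 0.40. The microglia count was 11 without O4+ replicate 3, without O4+ replicate 4 and without A2B5+ replicate 2. It was 12 without O4+ replicate 1 or A2B5+ replicate 5, 13 without A2B5+ replicate 4, and 19 or 20 without any other array. Markers of astrocytes and radial glia were lower for 12 of 18 and higher for 0 (median -1.32). The water channel Aqp4 fell by 0.82 ± 0.25, while the filament protein Gfap differed by -0.43 ± 0.31 and was not called. Of 21 vessel markers 14 were lower and 0 higher (median -2.004). The 14 were the endothelial genes, with Pecam1 and Tie1 down by 2.02 ± 0.32 and 2.56 ± 0.23, whereas none of the 7 mural genes was called (differences -0.71 to 0.081, smallest limma adjusted p 0.18). Pecam1 and Tie1 passed the filter through A2B5+ arrays alone. Neuron markers went both ways, with 4 of 16 higher and 7 lower, and with the neuronal tubulin Tubb3 at -1.80 ± 0.32. The lower count for neurons was 3 to 7 and the higher count 2 to 5 when single arrays were left out, with the lower count smallest without O4+ replicate 1. The neuron count was 4 lower without O4+ replicate 4, A2B5+ replicate 3 or A2B5+ replicate 4, and 2 higher without O4+ replicate 1, O4+ replicate 4, A2B5+ replicate 2 or A2B5+ replicate 3, and also 2 higher with the arrays centred. Of 9 oligodendrocyte progenitor genes, 5 were higher and 4 lower, and of 10 fibroblast and meningeal genes 3 were lower and 0 higher. Of the 4 lists for which limma called 0 genes higher, only that of fibroblasts and meninges held 1 gene that was higher at an unadjusted p under 0.05, and it was called higher without O4+ replicate 3. Ratios do not show which of these markers, if any, were absent from a population.

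The marker lists also varied from array to array on array A. The mean log2 ratio of 20 microglia and macrophage genes was -0.70, 0.15, -1.44 and -1.25 on O4+ arrays 1 to 4, against 0.10, 0.87, 0.13, 0.48 and 0.87 on A2B5+ arrays 1 to 5. It was highest among O4+ arrays in replicate 2, where Mertk 1390389_at, Pros1, Gas6 1369735_at and Axl were also highest, and lowest in replicate 3, where all 4 were lowest. The endothelial and mural list had its O4+ extremes in the same replicates (-0.58 and -1.85), as did the fibroblast and meningeal list (0.27 and -0.69), whereas the astrocyte list was highest in replicate 4 and the neuron list lowest in replicate 1. O4+ replicate 2 had the lowest limma array weight (0.22) and the highest median log2 ratio (0.16) of the type A arrays. Among A2B5+ arrays the microglia list was lowest in replicates 1 and 3, as were Mertk 1390389_at, Pros1 and Axl. Gas6 1369735_at was instead highest in replicate 3. The astrocyte and neuron lists were highest among A2B5+ arrays in replicate 3 (0.88 and 1.05). The mean of 18 endothelial and mural genes lay between -1.85 and -0.58 on O4+ arrays and between 0.11 and 0.58 on A2B5+ arrays. For 17 astrocyte and radial glia genes the ranges were -0.99 to -0.40 and -0.02 to 0.88, and for 15 neuron genes -0.40 to -0.12 and -0.28 to 1.05, O4+ first in each. The part of these cell types in the members' differences was not tested.

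**Figure D3:**
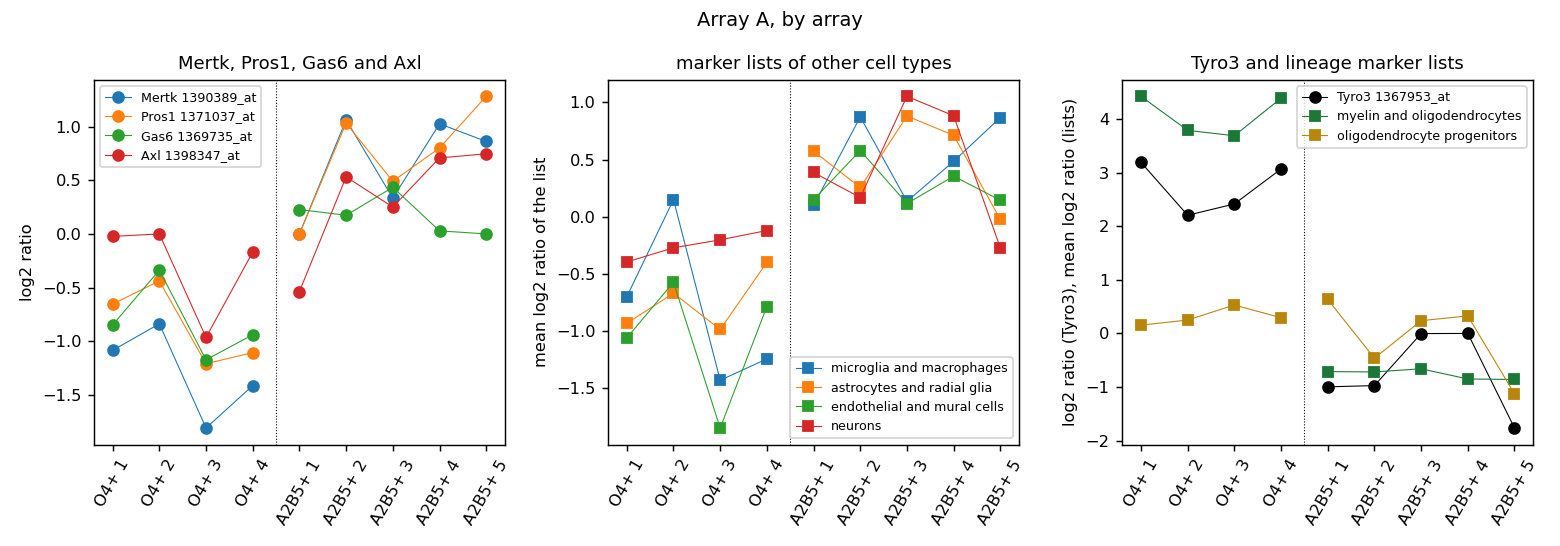
Log2 ratios of TAM members and mean log2 ratios of cell type marker lists on each array of type A, O4+ arrays to the left of the dotted line and A2B5+ arrays to its right. Thin lines join arrays of a population only to guide the eye. Mertk 1390389_at, Pros1, Gas6 1369735_at and Axl are highest among O4+ arrays in replicate 2 and lowest in replicate 3, as are the microglia list and the endothelial and mural list, while the astrocyte list is highest in replicate 4.

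Genes whose ratios followed a called member most closely were found by Pearson correlation of log2 ratios over the 9 arrays of its type, among 9044 other genes of array A or 4560 of array B. The arrays share the population difference, and correlations of the deviations from population means are given beside them. For Tyro3 the closest were Acss2, which makes acetyl-CoA from acetate (r = 0.994, 0.965 within populations), Cyp51, an enzyme of cholesterol synthesis (0.994 and 0.940), and the growth factor receptor Fgfr2 (0.993 and 0.932). These rose by 2.87 ± 0.24, 2.06 ± 0.24 and 1.68 ± 0.20. For Mertk 1390389_at they were the adaptor Sh2b3 (0.992 and 0.944), Pm20d2 (0.990 and 0.944) and Edem1, of the degradation of misfolded glycoproteins (0.989 and 0.954). For Pros1 they were Oplah, which hydrolyses oxoproline (0.991 and 0.957), Sp110, a nuclear body protein of leukocytes (0.990 and 0.952), and the nucleotide-sugar receptor P2ry14 (0.990 and 0.967). For Gas6 1369735_at they were Rhoj, a small GTPase of endothelial cells (0.984 and 0.937), Cdca8, of the mitotic passenger complex (0.979 and 0.885), and H2az1, a histone variant (0.978 and 0.874). For Gas6 1383047_at they were Cep41 (0.984 and 0.948), Slfn2 (0.984 and 0.954) and Gng2 (0.975 and 0.913). No gene was shared between these sets of 3.

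Genes that act around the receptors were called in both directions, as were 28.8% (higher) and 17.8% (lower) of all genes tested. The lists were chosen with earlier results of these data known. Of 17 listed genes of the vitamin K cycle and of other carboxylated proteins, 7 were tested, 1 was higher and 1 lower (median difference 0.00, against 0.14 for all genes). Vkorc1, the reductase that regenerates vitamin K, rose, with ratios of 1.374, 1.316, 1.407 and 1.339 in O4+ replicates, against 1.000, 0.752, 0.804, 0.866 and 0.911 in A2B5+ replicates (0.66 ± 0.12, limma adjusted p = 0.0015). Every O4+ array was above every A2B5+ array, as for 33.3% of tested array A probe sets. The carboxylase Ggcx itself differed by 0.14 ± 0.18 (adjusted p = 0.55), and the quinone reductase Nqo1 fell by 1.45 ± 0.19. The higher count was 2 without O4+ replicate 2.

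Of 6 tested genes for other TAM ligands, coagulation partners and sheddases, 1 was higher and 1 lower (median 0.00). Tfpi, the coagulation inhibitor for which protein S is a cofactor, fell by 0.96 ± 0.23 (limma adjusted p = 0.0085). Tulp1, a further ligand of the receptors in the retina, was called at 0.50 ± 0.18 (adjusted p = 0.048), but not after centring (adjusted p = 0.13), with the most variable probe set of each gene (adjusted p = 0.052) or without any 1 of 8 of the 9 arrays, A2B5+ replicate 5 being the exception. The lower count was 2 without A2B5+ replicate 4. The sheddases Adam10 and Adam17, which can release receptor ectodomains, differed by 0.17 ± 0.15 and -0.16 ± 0.14 and were not called.

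Among genes of phosphatidylserine exposure, bridging and engulfment, 9 of 29 were higher, a share near that of all genes, and 10 were lower (median -0.20). The lower count was 6 without A2B5+ replicate 2. The flippases Atp8a1 and Atp11a, which move phosphatidylserine to the inner leaflet, rose by 1.89 ± 0.24 and 1.83 ± 0.27, and the adaptor Bcar1 by 2.48 ± 0.29. Mfge8, which bridges phosphatidylserine to integrins as Gas6 does to TAM receptors, fell by 1.59 ± 0.29. Its ratios were 0.394, 0.750, 0.476 and 0.538 in O4+ replicates, against 1.538, 1.206, 2.452, 2.143 and 1.000 in A2B5+ replicates. They did not overlap, as for 10.7% of tested array A probe sets in this direction. The integrin subunits Itgb5 and Itgav, to which Mfge8 binds, fell by 1.42 ± 0.27 and 0.70 ± 0.24, while the subunit Itgb3 differed by -0.48 ± 0.43 and was not called. Stab1, a phosphatidylserine receptor of macrophages and endothelium, fell by 1.94 ± 0.46.

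Of 18 tested signalling and feedback genes, 2 were higher and 7 lower (median -0.17). The adaptor Shc1, the interferon receptor subunit Ifnar1, through which TAM receptors act on inflammation in mouse dendritic cells, and the phospholipase Plcg1 fell by 1.42 ± 0.16, 1.20 ± 0.23 and 0.88 ± 0.21. The phosphatase Ptpn11 rose by 0.73 ± 0.14. Socs1, an inhibitor of cytokine signalling, was called at 0.49 ± 0.15, but not after centring (limma adjusted p = 0.071) or with the replicate number as a block (adjusted p = 0.053), and the higher count was 1 without O4+ replicate 2, O4+ replicate 3, A2B5+ replicate 2 or A2B5+ replicate 3. The adaptor Grb2 and the kinases Akt1 and Akt2 differed by 0.04 ± 0.13, 0.07 ± 0.13 and 0.15 ± 0.12 and were not called.

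**Figure D4:**
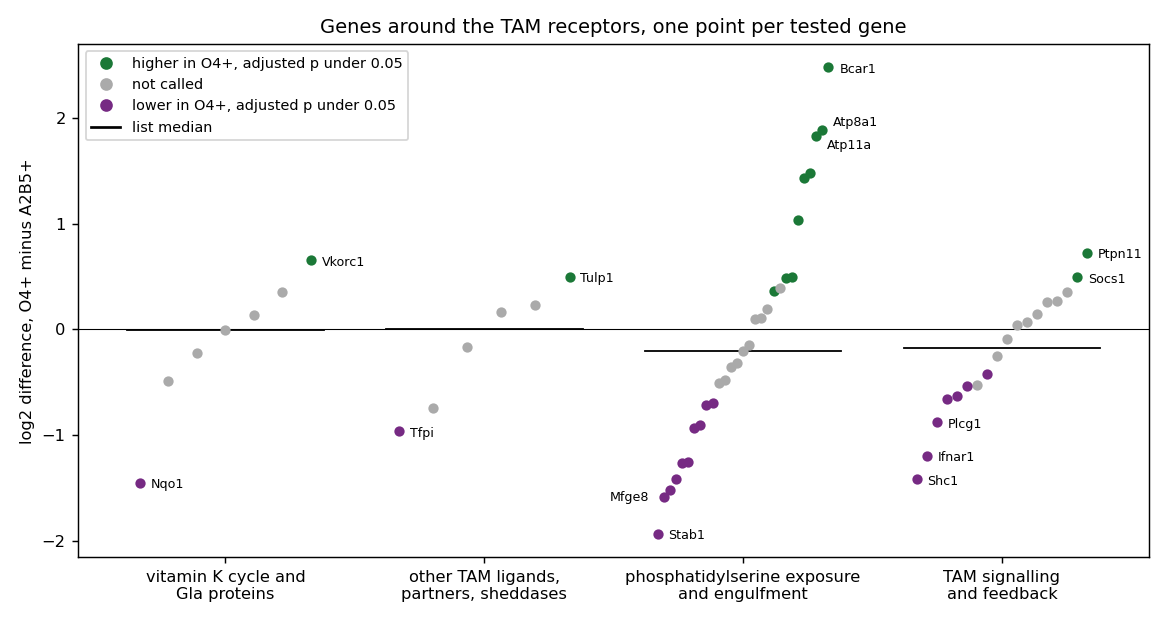
Log2 difference, O4+ minus A2B5+, of each tested gene in 4 lists around the TAM receptors, with list medians as black lines. Coloured points have an adjusted p under 0.05, and most of the largest in each direction are named. The engulfment list spans the widest range, with Bcar1 at 2.48 and Stab1 at -1.94.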

How the data were processed

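The authors deposited linear ratios, 9 arrays per type, from biotin-labelled total RNA (15923 probe sets for array A, 15333 for array B). The submitters' processing notes name GCRMA, which corrects probe signals for background and combines them by probe set, and state no version. The step from its output to ratios is not described in the labels or headers. In the files, 12995 and 11050 probe sets have a median over their arrays of exactly 1, and the others lie below 1. Log2 ratios were compared with limma 3.58.1 in R 4.3.3 (lmFit, eBayes, two-sided), by array type, over 13098 and 11136 probe sets with a ratio of at least 1 on at least 4 arrays, with Benjamini-Hochberg adjustment. The 57 control probe sets of each type were left out. For gene lists, a gene's tested probe sets were averaged, array A before array B. The fit was checked on simulated data. Named genes outside the family were the 3 largest called rises and falls of each of the 4 lists around the receptors (those of the cell type lists, which the rule also covers, are given as counts), fixed cell type markers and the 3 closest correlates of each called member; Itgb3, Itgb5, Itgav, Ggcx, Adam10, Adam17, Grb2, Akt1 and Akt2 were added after their values were seen, and 1 further gene of the 4 lists is not reported here. The members and lists were chosen with earlier results of these data known. Alternatives were array centring, no filter, a median filter, array weights, a replicate block, leaving out each array and, per gene, the most variable probe set. With 4 and 5 arrays a group, the number of arrays limits precision.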

Additional observations from a re-analysis of the deposited data

Results flagged for a closer look

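In 3 of the 16 sets of replicate values of the TAM probe sets, a single array stood apart from the others by Dixon's criterion, which chance meets in about 1 set in 20. The ratio of Mertk 1369382_at in A2B5+ replicate 4 was 1.968, above all other A2B5+ arrays. The ratio of Gas6 1392784_at in O4+ replicate 1 was 0.784, below all other O4+ arrays. The ratio of Gas6 1383047_at in O4+ replicate 4 of array B was 1.000, above all other O4+ arrays. That array also had the lowest limma array weight of its type (0.31).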

How the results depend on the processing

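The calls of Tyro3, Pros1, Mertk 1390389_at and Gas6 1369735_at held under all alternatives. With single arrays left out, the differences without a call ranged from -0.85 to -0.40 for Axl, from -0.23 to 0.057 for Mertk 1369382_at and from -0.15 to 0.055 for Gas6 1392784_at; Axl gained a call without A2B5+ replicate 1, and the others changed sign without 1 array each time (A2B5+ replicate 4 for Mertk, O4+ or A2B5+ replicate 1 for Gas6). On array A, 2439 probe sets were called higher with centring and 7128 with no filter, against 4259, and with 1 value per gene 2241 with centring, against 3445. No label says that equal replicate numbers mark a shared litter, and deviations of equally numbered samples correlated at 0.0196 to 0.305 (array A) and -0.198 to 0.237 (array B), so they are not treated as paired. Only A2B5+ cells have a replicate 5, so that array has no part in a difference fitted with the replicate block. With the block, Gas6 1383047_at differed by -1.19 and was not called (limma adjusted p = 0.088), and no other member's call changed. Without A2B5+ replicate 5 and with no block, it also differed by -1.19 but was called (limma adjusted p = 0.027). The block gave 4129 higher and 2103 lower probe sets for array A, with 870 and 1326 for array B. The cause of these changes was not tested. Only 4 and 5 samples limit what can be told apart.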
